A study of Mus musculus with 6 samples.

Results

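The genes described here act in the making of collagen, from the hydroxylation of the new chain to its export and crosslinking. They are TRAM2, P4HA1, P4HA2, PLOD1, PLOD2, PLOD3, LOX, LOXL1, LOXL2 and SERPINH1. The 10 genes were chosen by name, with earlier results of the same comparison known, in which Tram2 was already among the largest rises. Their values are therefore given as a description and without a p-value. Of the 30854 gene names in the probe table, these 10 have 19 of the 45281 probes, and each probe was kept on its own. A probe counted as detected on an array where its detection p-value, set against the negative controls, was under 0.05. Of the 19 probes, 16 (from 9 genes) were detected on at least 3 of the 6 arrays and entered the test, and LOXL2 had none among them.

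The cells were C2C12, mouse myoblasts that fuse into myotubes once switched to differentiation medium. In both groups, myoblasts received 60 nM siRNA by lipid transfection, changed medium 48 h later and differentiated for 4 days. Scramble siRNA was used in 3 samples and siRNA against *Dj1* in 3 samples, each hybridized to its own array of a single Illumina mouse BeadChip. No second line or siRNA dose was compared, and the labels do not say that the samples of a group were separate cultures, so p-values measure a spread between samples that may be technical. Median signal per array lay between 152.3 and 167.4, and 16985 to 18857 probes per array were detected. The median standard error over beads was 8.30 to 11.3 in scramble samples against 5.88 to 7.17 after DJ-1 siRNA. The effect of this gap on the changes was not tested. With 3 arrays per group, each estimate is coarse.

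Collagen chains are threaded into the endoplasmic reticulum (ER), where prolyl 4-hydroxylases turn prolines into hydroxyproline, which keeps the triple helix stable at body temperature. Lysyl hydroxylases modify lysines, which become sites for sugars and for crosslinks. Both enzyme families need iron, oxygen, ascorbate and oxoglutarate. The collagen chaperone SERPINH1 binds the folded helix until it leaves the ER, and outside the cell the copper enzymes of the lysyl oxidase family oxidize lysines so that fibrils crosslink. In muscle, this matrix surrounds the fibres and carries force between them.

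Labels were checked on the siRNA target. *Dj1*, named Park7 in the probe table, has 1 probe, whose normalized log2 signal was 13.60, 13.37 and 13.63 in scramble samples against 12.48, 12.49 and 12.15 after DJ-1 siRNA. Each DJ-1 siRNA array lay below each scramble array, and 44.7% of the scramble signal was left (log2 fold change -1.16, standard error 0.14, adjusted p = 0.00344 from limma).

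Among the 10 genes, probes for P4HA1, P4HA2, PLOD1, PLOD2 and TRAM2 were called higher after *Dj1* knockdown, and those for PLOD3, the crosslinking enzymes and the chaperone were not called. A probe was called where its p, adjusted by the Benjamini-Hochberg method over the 17890 tested probes, was under 0.05. Of the 16 tested probes, 8 (from 5 genes) were called higher and 0 lower with limma. Over all tested probes, 16.5% were called higher, 13.6% lower and 30.1% in either direction. Without the Tram2 probes, 6 of 14 were called higher. At an unadjusted p under 0.05, 10 of the 16 passed, and 1 of these, a LOXL1 probe, was lower. The share of all tested probes passing at that level was not computed, so unadjusted counts here and below have no comparison. A t-test without moderation also called 0 lower, and a prior variance that follows the signal called 1 lower. The median log2 fold change of the 16 probes was 0.51, or 0.28 without the Tram2 probes, against 0.05 over all tested probes. No overlap between groups was seen for 10 of the 16 probes and for 48.5% of all tested probes. Since the genes were chosen with this comparison known, nothing is read from these counts. The counts rest on few arrays: 4 were called without DJ-1 siRNA replicate 1, 3 without DJ-1 siRNA replicate 3, and 5 each without scramble replicate 2 or scramble replicate 3. Calls over all tested probes fell in these fits too, from 5387 to 2444, 2612, 3844 and 4074 in that order. The smaller counts are therefore not particular to the 10 genes. Omitting scramble replicate 1 left 8 called (5302 over all tested probes), and omitting DJ-1 siRNA replicate 2 left 7 (3965).

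**Figure D1:**
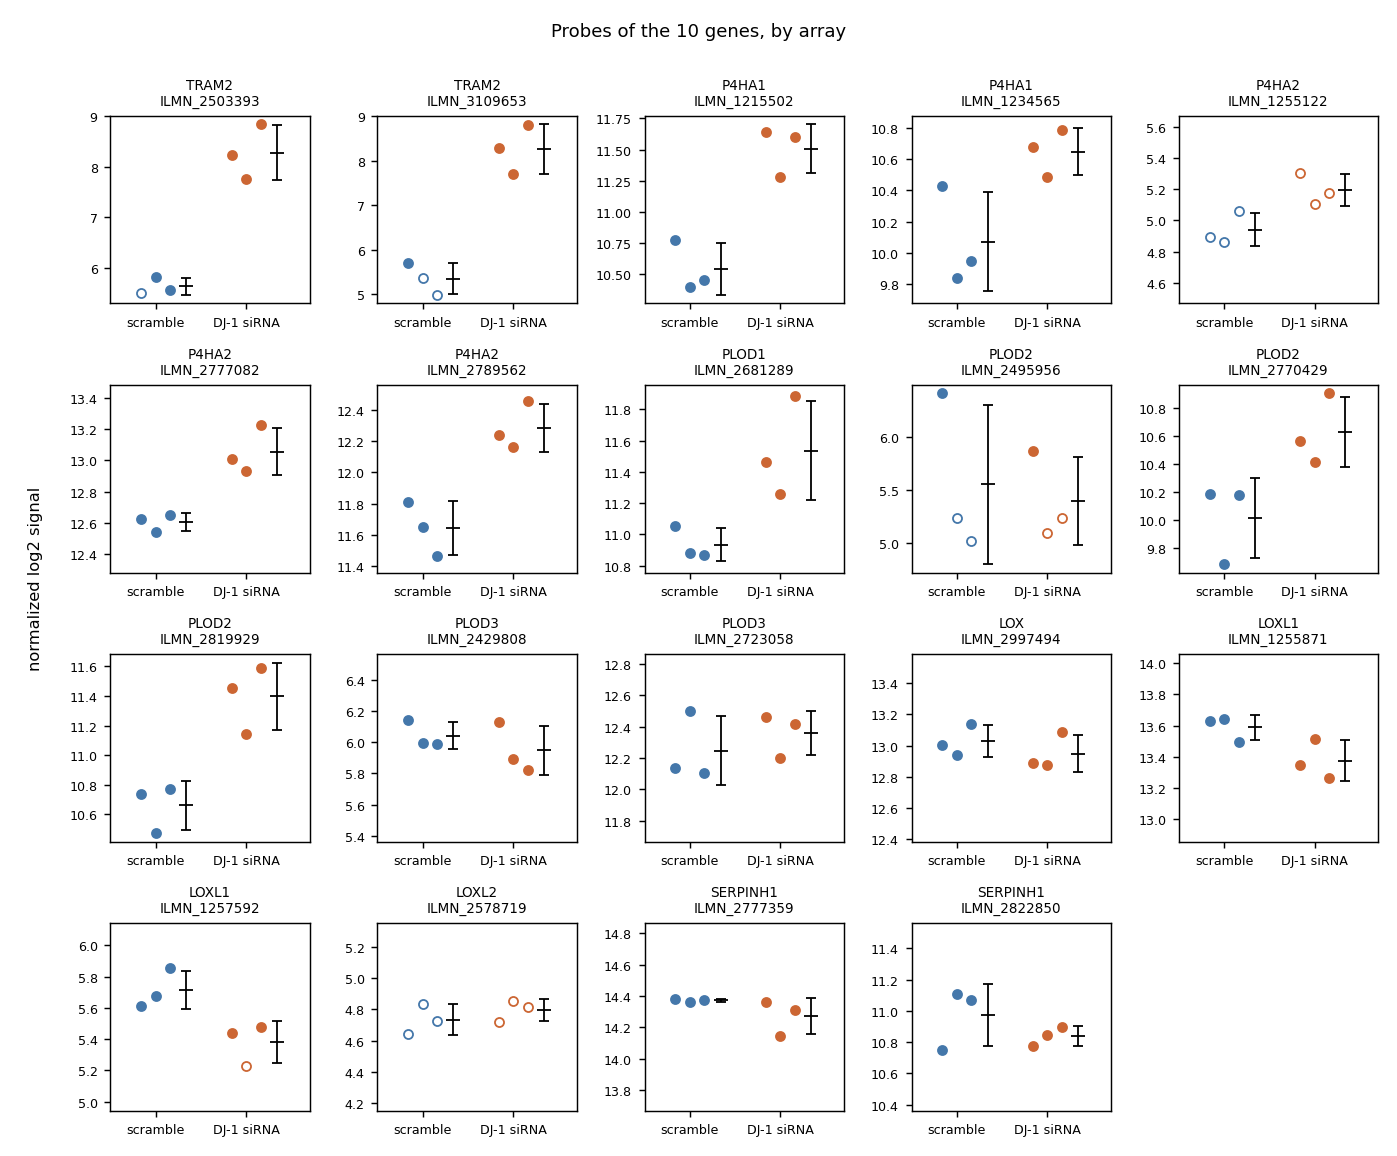
Normalized log2 signal (vertical axis, a scale of its own in each panel) of the 19 probes of the 10 genes on 3 scramble (blue) and 3 DJ-1 siRNA (orange) arrays. Points are arrays, open where the probe was not detected, and black bars are the mean and SD of each group. The DJ-1 siRNA points lie above the scramble points for the P4HA1 probes, the PLOD1 probe and both Tram2 probes, and they mix with them for LOX and PLOD3.

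Promoter windows were looked up after probes of several of these hydroxylases, though not of PLOD3, had been called higher. A link between motifs and changes was not tested. RefSeq (GRCm38.p6) windows from 250 bases before to 50 after the start matched 6 of the 10 genes, and PLOD2, LOX, LOXL1 and LOXL2 had no entry. Each window was searched on both strands for ACGTG and GCGTG, the core letters that hypoxia-inducible factors are known to bind. P4HA1 held 3 positions, P4HA2 held 4, PLOD1 held 2, PLOD3 held 4, SERPINH1 held 1 and TRAM2 held 2. At least 1 of these motifs is found in 43.8% of all 32817 windows of 300 bases (ACGTG in 19.6%, GCGTG in 32.4%), so a match is common and describes letters alone. The stretches before the start are shown for 4 genes with called probes, 5′ to 3′, with the motifs in capitals. That of P4HA1 ends 100 bases before the window's start site, where its gene record begins. It so leaves out the P4HA1 motif nearest the start, an ACGTG core. Motifs that begin after the start, at base 11 for P4HA2, 15 for PLOD1 and 25 for TRAM2, are counted above but not shown.
P4HA1, chr10:59323046-59323196, plus strand: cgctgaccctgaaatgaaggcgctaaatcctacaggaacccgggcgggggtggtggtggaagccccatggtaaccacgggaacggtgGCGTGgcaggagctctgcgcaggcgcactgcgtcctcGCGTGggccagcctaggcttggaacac
P4HA2, chr11:54100674-54100923, plus strand: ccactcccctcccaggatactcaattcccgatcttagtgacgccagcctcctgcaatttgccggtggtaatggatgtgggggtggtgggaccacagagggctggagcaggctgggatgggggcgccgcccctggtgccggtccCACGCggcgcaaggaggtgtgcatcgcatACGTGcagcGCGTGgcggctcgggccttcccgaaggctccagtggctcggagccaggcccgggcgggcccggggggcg
PLOD1, chr4:147936777-147937026, minus strand: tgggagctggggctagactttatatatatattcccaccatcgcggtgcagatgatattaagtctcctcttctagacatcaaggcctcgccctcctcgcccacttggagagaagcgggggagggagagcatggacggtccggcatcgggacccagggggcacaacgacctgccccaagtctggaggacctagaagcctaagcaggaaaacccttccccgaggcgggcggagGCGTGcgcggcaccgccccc
TRAM2, chr1:21079226-21079475, minus strand: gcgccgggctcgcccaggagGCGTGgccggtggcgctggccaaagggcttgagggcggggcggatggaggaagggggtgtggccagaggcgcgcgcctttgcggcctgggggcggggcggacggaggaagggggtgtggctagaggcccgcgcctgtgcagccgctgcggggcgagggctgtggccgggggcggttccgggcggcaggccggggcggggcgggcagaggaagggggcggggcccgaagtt

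P4HA1 and P4HA2 are catalytic subunits of prolyl 4-hydroxylase. P4HA1 probe ILMN_1215502 had a normalized log2 signal of 10.77, 10.39 and 10.45 in scramble samples against 11.64, 11.28 and 11.60 after DJ-1 siRNA. The groups were well apart, with the lowest DJ-1 siRNA array above the highest scramble array. The change was 1.96-fold (log2 fold change 0.97, standard error 0.15), and the probe was called under each of the 13 alternatives to the processing, with values of 0.90 to 1.09. This probe keeps the name of the file, since its identifiers matched no RefSeq gene. The other P4HA1 probe, ILMN_1234565, gave 10.43, 9.84 and 9.95 in scramble samples against 10.67, 10.48 and 10.78 after DJ-1 siRNA. Here scramble replicate 1 lay close to the lowest DJ-1 siRNA array, and the change was 1.49-fold (log2 fold change 0.58, standard error 0.18). Its call was lost without scramble replicate 2 (0.46) or 3 (0.51), without DJ-1 siRNA replicate 1 (0.56), 2 (0.66) or 3 (0.50), without the filter on dim probes, and with an unmoderated t-test.

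P4HA2 probe ILMN_2789562 had a normalized log2 signal of 11.81, 11.65 and 11.46 in scramble samples against 12.24, 12.16 and 12.46 after DJ-1 siRNA. Each DJ-1 siRNA array was above each scramble array, by 1.56-fold on average (log2 fold change 0.64, standard error 0.13). The call was lost without DJ-1 siRNA replicate 3 (0.56). P4HA2 probe ILMN_2777082 gave 12.62, 12.54 and 12.65 against 13.01, 12.93 and 13.22 in the same order. It was 1.36-fold higher (log2 fold change 0.45, standard error 0.11), again with no overlap. That call was lost without scramble replicate 2 (0.42) or 3 (0.47), without DJ-1 siRNA replicate 1 (0.47) or 3 (0.36), and without the filter on dim probes. The remaining P4HA2 probe, ILMN_1255122, was not detected on any array, and its identifiers matched no RefSeq gene.

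PLOD1, PLOD2 and PLOD3 are the lysyl hydroxylases, of which PLOD2 acts on the ends of the chains, outside the helix, and PLOD3 also adds sugars to hydroxylysine. PLOD1 probe ILMN_2681289 had a normalized log2 signal of 11.05, 10.88 and 10.87 in scramble samples against 11.46, 11.26 and 11.88 after DJ-1 siRNA. DJ-1 siRNA replicate 3 stood above the other arrays, and the groups did not overlap. The change was 1.52-fold (log2 fold change 0.60, standard error 0.17). Its call was lost without scramble replicate 2 or 3 (0.57 each), without DJ-1 siRNA replicate 1 (0.64) or 3 (0.43), without the filter, and with an unmoderated t-test.

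PLOD2 probe ILMN_2819929 gave 10.74, 10.47 and 10.77 in scramble samples against 11.45, 11.15 and 11.59 after DJ-1 siRNA. It was 1.66-fold higher (log2 fold change 0.73, standard error 0.15) with no overlap. The call was lost without DJ-1 siRNA replicate 1 (0.70) or 3 (0.63) and with an unmoderated t-test. PLOD2 probe ILMN_2770429 gave 10.18, 9.68 and 10.18 against 10.56, 10.41 and 10.91. Its DJ-1 siRNA arrays were also above its scramble arrays, with a log2 fold change of 0.61 (95% confidence interval 0.16 to 1.07), but it was not called. It was called under 5 of 13 alternatives. A further PLOD2 probe, ILMN_2495956, was detected on 1 array of each group, replicate 1 in both, and was not tested.

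The PLOD3 probes did not separate the groups. ILMN_2723058 gave 12.14, 12.50 and 12.11 in scramble samples against 12.46, 12.20 and 12.42 after DJ-1 siRNA, with a log2 fold change of 0.11 (95% confidence interval -0.23 to 0.46). ILMN_2429808, whose identifiers matched no RefSeq gene, was dim and had a log2 fold change of -0.09 (95% confidence interval -0.37 to 0.19). These intervals leave room for a change of either sign.

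SERPINH1, the collagen chaperone, was not called on either probe. ILMN_2777359 had a normalized log2 signal of 14.38, 14.36 and 14.37 in scramble samples against 14.36, 14.15 and 14.31 after DJ-1 siRNA. The log2 fold change was -0.10 (95% confidence interval -0.34 to 0.14), and its sign turned (0.08) when arrays were shifted to a common 75th percentile. For ILMN_2822850 it was -0.14 (95% confidence interval -0.44 to 0.16).

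TRAM2 is an ER membrane protein of the translocation machinery, known to help in the synthesis of type I collagen. Probe ILMN_2503393 had a deposited signal of 183.2, 199.2 and 172.5 in scramble samples against 428.4, 370.4 and 513.4 after DJ-1 siRNA. On the normalized log2 scale this was 5.51, 5.82 and 5.57 against 8.24, 7.76 and 8.84. The scramble values lay near the background, with the probe detected on 2 of 3 arrays, and the DJ-1 siRNA values were clear of it on each array. The fitted log2 fold change was 2.64 (standard error 0.27), a 6.24-fold difference, while the deposited signals differed 2.36-fold. Probe ILMN_3109653 gave 5.71, 5.37 and 4.99 against 8.30, 7.70 and 8.81, was detected on 1 scramble array, and had a fitted log2 fold change of 2.91 (standard error 0.31). Both probes passed the filter mainly through the DJ-1 siRNA arrays. The size depends on the background correction: without it, and with a 75th percentile shift, the log2 fold changes were 1.28 and 1.37.

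LOX, LOXL1 and LOXL2 are lysyl oxidases that crosslink collagen and elastin. The single LOX probe gave 13.004, 12.94 and 13.14 in scramble samples against 12.89, 12.88 and 13.09 after DJ-1 siRNA. The groups overlapped, with a log2 fold change of -0.08 (95% confidence interval -0.34 to 0.18) that turned to 0.07 under the 75th percentile shift. LOXL1 probe ILMN_1255871 gave 13.63, 13.64 and 13.50 against 13.35, 13.52 and 13.26, with overlap and a log2 fold change of -0.21 (95% confidence interval -0.47 to 0.05). It was called lower with a prior variance that follows the signal, while the 75th percentile shift took it to -0.05. LOXL1 probe ILMN_1257592 was dim and gave 5.61, 5.68 and 5.85 against 5.44, 5.23 and 5.48. Its groups did not overlap, and its log2 fold change of -0.33 (standard error 0.12) was called with the 75th percentile shift (-0.48). It was -0.10 without background correction, and -0.09 with both changes. The single LOXL2 probe was not detected on any array and gives no fold. Its identifiers matched no RefSeq gene, so absence of LOXL2 RNA cannot be read from it.

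**Figure D2:**
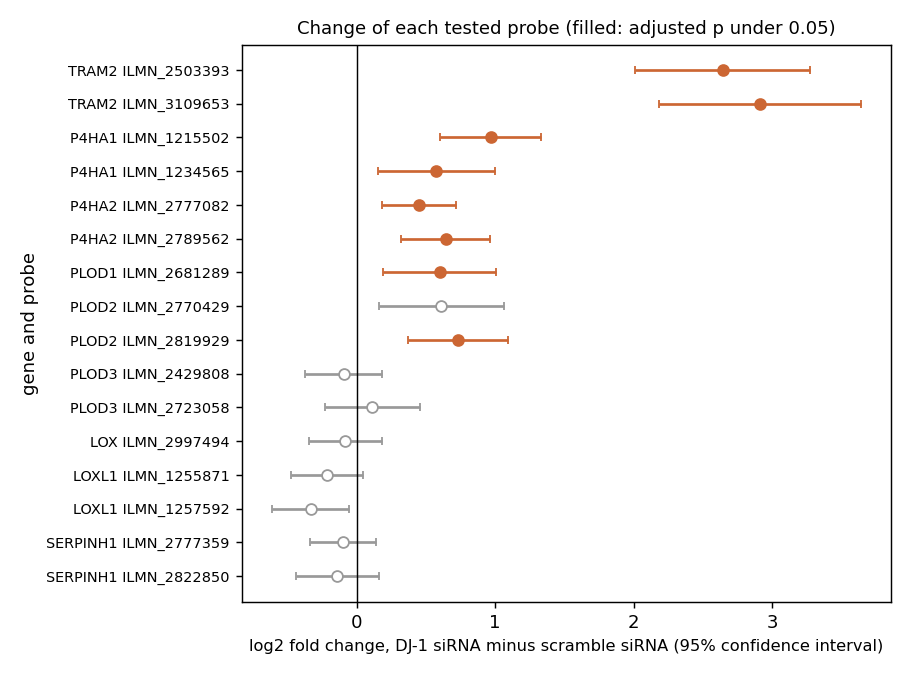
Log2 fold change (horizontal axis, DJ-1 siRNA minus scramble siRNA) of the 16 tested probes with 95% confidence intervals. Filled points were called. The Tram2 probes lie at 2.64 and 2.91, the called hydroxylase probes between 0.45 and 0.97, and the intervals of PLOD3, LOX and SERPINH1 cross 0.

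**Figure D3:**
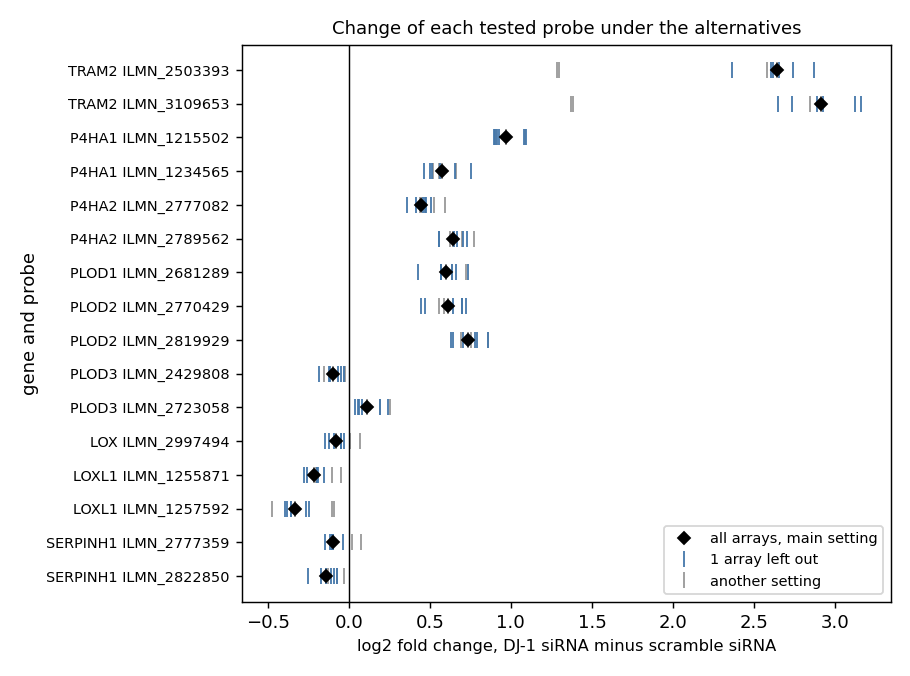
The same log2 fold changes (horizontal axis) in the main setting (diamonds), with 1 array left out (blue ticks) and under the other settings (grey ticks). The Tram2 probes drop to 1.28 and 1.37 with no background correction plus the 75th percentile shift, the hydroxylase probes other than PLOD3 stay between 0.36 and 1.09, and LOX and a SERPINH1 probe cross 0.

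The other genes of the pathway were taken as 6 lists, also chosen with earlier results of these data known. The p-values printed for their genes are therefore descriptive. The lists are given by their counts, beside the 16.5% of all tested probes called higher and the 13.6% called lower. Among the 101 tested probes of these lists, 7 rose and 23 fell, with a median log2 fold change of -0.07. With the 75th percentile shift, 11 rose and 16 fell. Without background correction, 13 rose and 28 fell, and with both changes 15 rose and 25 fell.

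The list of ER folding and modification holds the partners of the hydroxylases. Of its 18 tested probes, 1 rose and 4 fell, with a median log2 fold change of -0.04. Crtap, part of the complex that hydroxylates prolines at a different carbon, gave 10.81, 10.79 and 10.72 in scramble samples against 10.05, 10.30 and 9.88 after DJ-1 siRNA. All 3 of the latter were lower, at 61.6% of the scramble level (log2 fold change -0.70, standard error 0.13, adjusted p = 0.0102 from limma), and its other probe fell likewise (-0.82). The collagen prolyl isomerase Fkbp14 fell to 66.1% (log2 fold change -0.60, standard error 0.11, adjusted p = 0.0114 from limma). P3h4, a partner of lysyl hydroxylase, fell by 0.40 (adjusted p = 0.0489 from limma), a call lost without scramble replicate 1 (-0.36) or 2 (-0.34) or DJ-1 siRNA replicate 1 (-0.41), 2 (-0.42) or 3 (-0.38), with the 75th percentile shift (-0.31), without the filter and with an unmoderated t-test. P3h2, a prolyl 3-hydroxylase, rose 1.80-fold on 1 of 2 probes (log2 fold change 0.85, adjusted p = 0.0148 from limma). The other P3h2 probe had a log2 fold change of 0.79 with no overlap and was not called (adjusted p = 0.0504 from limma). The called probe was detected on 1 scramble array and passed the filter mainly through the DJ-1 siRNA arrays, so the size is uncertain. Its log2 fold change was 0.27 without background correction, and an unmoderated t-test ended the call. P4hb, the shared subunit of prolyl 4-hydroxylase, gave 14.34, 14.27 and 14.38 against 14.61, 14.54 and 14.62. Its groups did not overlap, but its log2 fold change of 0.26 was not called (adjusted p = 0.0750 from limma).

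Of the 18 tested probes for export from the ER, 2 rose and 1 fell, with a median log2 fold change of -0.05. Sec23a and Sec13 both encode coat proteins of the vesicles that leave the ER. Sec23a rose 1.57-fold (log2 fold change 0.65, standard error 0.13, adjusted p = 0.0126 from limma), and Sec13 fell to 65.3% (log2 fold change -0.61, standard error 0.11, adjusted p = 0.00893 from limma). Kdelr3, a receptor that returns ER proteins, rose 1.54-fold (log2 fold change 0.62, adjusted p = 0.0129 from limma). In each of these genes all 3 DJ-1 siRNA arrays lay on one side of the scramble arrays. Tram1, the relative of TRAM2, had log2 fold changes of -0.03, 0.06 and 0.15 on its 3 probes, and none was called.

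Of the 26 tested probes for extracellular processing and crosslinking, 1 rose and 10 fell, with a median log2 fold change of -0.16. Fibromodulin and decorin are small proteoglycans that bind collagen fibrils. Fmod probe ILMN_2999762 gave 7.86, 8.26 and 7.996 in scramble samples against 5.71, 6.17 and 5.42 after DJ-1 siRNA. That is a fall to 20.7% (log2 fold change -2.27, standard error 0.21, adjusted p = 0.00277 from limma), which was -1.08 without background correction. Its other probe was not detected on any DJ-1 siRNA array and was called lower, by 2.55-fold or more, but passed the filter through the scramble arrays alone and leaves the test if any of them is omitted. This bound takes, per array, the higher of the lowest detected signal and the probe's own, and holds only with background correction. Without it the log2 fold change was -0.70, and -0.65 with the shift as well. Dcn fell on its 2 tested probes (log2 fold changes -1.79 and -1.34, adjusted p = 0.00580 and 0.00598 from limma), with no overlap on either.

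The enhancers of procollagen trimming fell as well, Pcolce2 on 2 probes (-0.86 and -0.66, adjusted p = 0.00562 and 0.00855 from limma) and Pcolce on 1 (-0.52, adjusted p = 0.0162 from limma). The Pcolce call was lost without DJ-1 siRNA replicate 1 (-0.44) and with the 75th percentile shift (-0.39). Loxl4, a further lysyl oxidase, fell by 0.49 on its tested probe (adjusted p = 0.0267 from limma), and by 0.26 without background correction. Its call was lost without scramble replicate 2 (-0.52) or DJ-1 siRNA replicate 1 (-0.52), 2 (-0.53) or 3 (-0.43), without the filter, with an unmoderated t-test and with a trend of the prior variance. Efemp2, which helps lysyl oxidase act on elastin, fell by 0.46 (adjusted p = 0.0143 from limma), a call lost without DJ-1 siRNA replicate 1 (-0.42) and with the 75th percentile shift (-0.33). Fibronectin (Fn1) rose on 1 of 4 tested probes (log2 fold change 0.86, adjusted p = 0.0148 from limma), and the other 3 had log2 fold changes of 0.16 to 0.22 and were not called. An unmoderated t-test ended the Fn1 call. Sparc fell on 1 of 3 tested probes (-0.31, adjusted p = 0.0452 from limma), a call lost on leaving out any single array (-0.33 to -0.28), without the filter, with the 75th percentile shift (-0.12) and with that shift but no background correction (-0.18).

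Among the collagen chains, 0 of 11 tested probes rose and 4 fell with limma, with a median log2 fold change of -0.29. At an unadjusted p under 0.05, 5 passed, each of them lower. Col5a2, a chain of type V collagen, gave 10.40, 10.22 and 10.53 in scramble samples against 9.02, 9.42 and 8.95 after DJ-1 siRNA with probe ILMN_2470069. It fell to 42.0% (log2 fold change -1.25, standard error 0.16, adjusted p = 0.00374 from limma), and probe ILMN_2802687 gave -1.28. A dim Col5a2 probe was not called (-0.15).

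The type I chain Col1a1 gave 11.44, 11.25 and 11.57 against 10.88, 11.01 and 10.95, and fell to 72.0% (adjusted p = 0.0238 from limma). That call was lost without scramble replicate 3 (-0.40) or DJ-1 siRNA replicate 1 (-0.44) or 3 (-0.47) with the 75th percentile shift (-0.35) and without the filter. Its partner chain Col1a2 had a log2 fold change of -0.29 and was not called (adjusted p = 0.174 from limma). Col3a1 fell to 74.8% on 1 probe (log2 fold change -0.42, adjusted p = 0.0190 from limma), a call lost without scramble replicate 3 (-0.39) or DJ-1 siRNA replicate 1 (-0.40) or 3 (-0.40) and with the 75th percentile shift (-0.28). Its other probe, at -0.64, was not called. The basement membrane chains Col4a1 (0.002) and Col4a2 (0.11) and the type V chains Col5a1 (0.10) and Col5a3 (0.58) were not called, and Col11a1 was not tested.

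**Figure D4:**
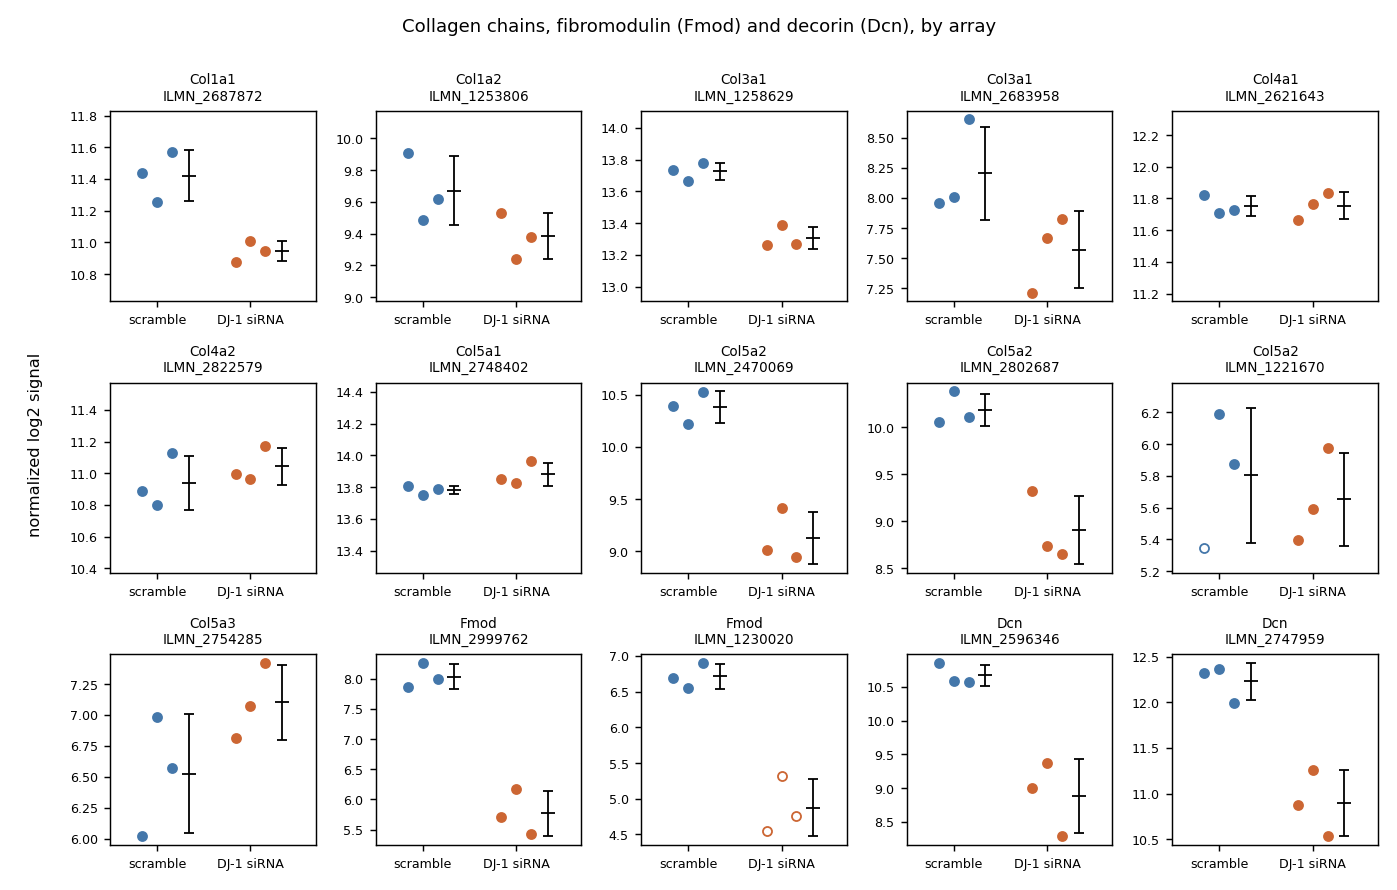
Normalized log2 signal (vertical axis, a scale of its own in each panel) of the tested probes of the collagen chains, fibromodulin and decorin, on 3 scramble (blue) and 3 DJ-1 siRNA (orange) arrays. Points are arrays, open where not detected, and black bars are the mean and SD. Groups stand apart for Fmod, Dcn and 2 of the 3 Col5a2 probes, and they overlap for the other Col5a2 probe and for Col4a1.

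The cofactor list covers ascorbate, copper and iron uptake. Of its 7 tested probes, 2 rose and 3 fell, with a median log2 fold change of -0.31. The copper importer Slc31a1 gave 9.55, 9.30 and 9.41 in scramble samples against 10.07, 9.97 and 10.02 after DJ-1 siRNA, a rise of 1.52-fold (standard error 0.11 on the log2 scale, adjusted p = 0.00901 from limma). Atp7a, which loads copper into secreted enzymes, rose on 1 of 2 tested probes (log2 fold change 0.59, adjusted p = 0.0467 from limma), which was 0.33 without background correction. That call was lost on leaving out any single array (0.43 to 0.69), without the filter and with an unmoderated t-test. Atox1, the copper chaperone that serves it, fell by 0.46 (adjusted p = 0.0205 from limma), a call lost without scramble replicate 2 (-0.46) or DJ-1 siRNA replicate 1 (-0.46) or 2 (-0.39). The transferrin receptor Tfrc fell on both probes (-0.66 and -0.71, adjusted p = 0.00728 and 0.00692 from limma), with no overlap. The ascorbate transporter Slc23a2 had a log2 fold change of -0.31 and was not called.

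For regulators of these genes, few probes were called. Of their 21 tested probes, 1 rose and 1 fell, with a median log2 fold change of 0.06. The tested Hif1a probe gave 7.85, 7.66 and 8.52 in scramble samples against 8.34, 8.37 and 8.62 after DJ-1 siRNA. The groups overlapped, and its log2 fold change of 0.44 was not called (adjusted p = 0.191 from limma). Its partner Arnt rose on 1 of 5 probes (log2 fold change 0.96, adjusted p = 0.0113 from limma), which was 0.33 without background correction, and the other 4 lay between 0.06 and 0.46. Tgfb2 fell by 0.42 (adjusted p = 0.0467 from limma), a call lost without scramble replicate 1 (-0.30) or 2 (-0.46) or DJ-1 siRNA replicate 1 (-0.42), 2 (-0.42) or 3 (-0.40), with the 75th percentile shift (-0.37), without the filter and with an unmoderated t-test. Not called were Tgfb1 (0.27), Tgfb3 (-0.14), both Smad3 probes (0.24 and 0.27), both Ctgf probes (-0.53 each), Egln2 (-0.56), Vhl (-0.09), 3 Egln1 probes (-0.24 to 0.05) and 3 Egln3 probes (0.02 to 0.40). Epas1 and Runx2 were not tested.

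**Figure D5:**
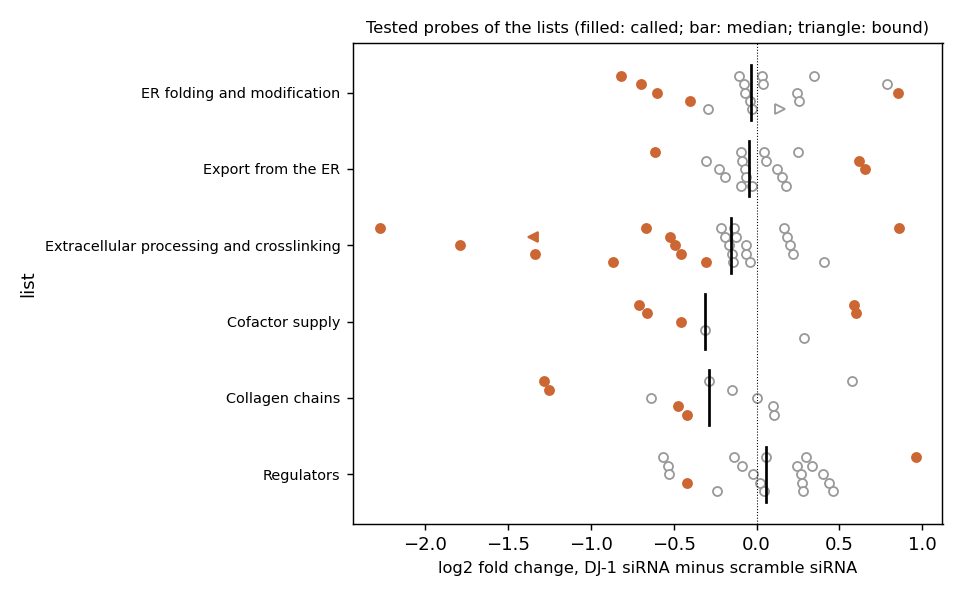
Log2 fold change (horizontal axis, DJ-1 siRNA minus scramble siRNA) of the tested probes of the 6 lists. Each point is a probe, filled where called, black bars are list medians, and triangles are bounds for probes undetected in a group. Of the extracellular probes 10 fell and 1 rose, and of the collagen chains 4 fell.

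Fewer cells of a type and less RNA per cell cannot be told apart in such bulk samples. Markers of several cell types were therefore listed beside these results, without a test of which types were present. Over all tested probes, 16.5% were called higher and 13.6% lower. Of 16 tested myotube probes, 0 rose and 9 fell with limma (9 at an unadjusted p under 0.05). The 9 came from 5 of 10 genes (Myh8, Myh1, Mymk, Tnnt3 and Des). Myog, Myh3, Ckm, Mylpf and Acta1 had no called probe. The summed level of the 16 myotube probes was 228721, 224893 and 223822 in scramble samples against 181720, 192042 and 167108 after DJ-1 siRNA. The probe with the highest mean over the 6 arrays was that of Acta1, which was not called (-0.005). Myoblast or reserve cell markers had 1 rise and 4 falls in 8 tested probes, with sums of 4642, 5292 and 4692 against 3460, 4072 and 3605, where Ccnb1 had the brightest probe and Pax7 was undetected. Fibroblast markers had 0 rises and 3 falls in 5 tested probes (3 at an unadjusted p under 0.05). Their sums were 7481, 8710 and 7554 against 4930, 6306 and 5583, where S100a4 had the brightest probe and Thy1, Tcf21 and Lum were undetected. Their part in the falls of collagen and matrix genes was not tested.

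Few probes of other cell types were tested. Of the osteoblast probes, 0 of 5 tested were called with limma (2 at an unadjusted p under 0.05), with sums of 640 to 807 against 513 to 699, where Bglap2 had the brightest probe and Sp7, Runx2 and Dmp1 were undetected. Of the adipocyte genes, Pparg rose on its only tested probe, and Adipoq, Plin1 and Lep were undetected (sums of 166 to 296 against 325 to 413). The macrophage markers had 1 tested probe (Cd68), not called, with Ptprc and Csf1r undetected and sums of 116 to 144 against 115 to 155. No endothelial probe was tested: Pecam1 and Cdh5 were each detected on 1 of the 6 arrays, and Kdr on none.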

How the data were processed

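Expression was measured on 6 arrays, 3 scramble siRNA and 3 DJ-1 siRNA. The authors quantified the arrays in GenomeStudio and deposited, per probe and array, the mean signal intensity and detection p-value, with bead number and bead standard error. The intensity columns carry no normalization and no background subtraction. Columns were assigned through the sample titles. The genes and lists were chosen with earlier results of these data known.

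In R 4.3.3 with limma 3.58.1, background was corrected by normexp from the detection p-values (offset 16), then quantile normalization and log2 were applied (neqc). The 17890 probes detected (p under 0.05) on 3 or more of 6 arrays were fitted with lmFit and eBayes, with Benjamini-Hochberg adjustment over all of them and a threshold of 0.05. Intervals are 95% confidence intervals. The pipeline was tested on simulated data. Gene names are those of the file, or of RefSeq (GRCm38.p6) where the Entrez number or accession matched, as for 32345 probes. The file names no genome build. Promoters were searched in Python 3.11.15.

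Named are Park7, each probe of the 10 genes, the called genes of each list (up to 6 per direction by size), each collagen chain, and each regulator with a tested probe. P4hb, Tram1, Slc23a2 and Sparc lie outside this rule and were named after their values were seen. Alternatives were no background correction, a shift to a common 75th percentile, both together, no filter, detection at p under 0.01 on every array, a trend of the prior variance, a t-test without moderation, a block for replicate number, omission of each array in turn, and the mean of the probes of a gene. The 13 alternatives counted for a single probe leave out the block and the mean per gene. Summed marker levels are normalized signals less the offset, on the linear scale.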

Additional observations from a re-analysis of the deposited data

How the results depend on the processing

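Of the 10 genes' probes, 8 were called, all higher. The count was 5 without the filter and 5 with a t-test without moderation, all higher. With the mean of the probes of a gene, 5 genes were higher and 1 lower. A 75th percentile shift and a trend of the prior variance each called 1 lower. With 1 array left out, 3 to 8 were called, all higher. For the 6 lists, 7 probes rose, but 13 without background correction, 11 with the shift, 15 with both and 13 with the trend. With 1 array left out, 14 to 20 of their probes fell. Over all probes, 3519 were called without the filter (1908 higher, 1611 lower), and 2444 to 5302 with 1 array left out (1257 to 2894 higher, 1187 to 2408 lower). What lies behind these differences was not tested.

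The sign turned for LOX with the shift (0.067) and with the shift without background correction (0.011), and for SERPINH1 probe ILMN_2777359 (0.078 and 0.021). The labels do not say whether replicate numbers mark pairs. They were not taken as pairs, since deviations of same-numbered arrays correlated at only 0.05, 0.05 and 0.02, though each array correlated best with its own number, a hint from the data. With the replicate block, 7 of the 10 genes' probes, 27 list probes and 4350 probes in all were called. The block ended the calls of the PLOD1 probe and of P4HA1 probe ILMN_1234565, and PLOD2 probe ILMN_2770429 was called under it.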
